A study of Mus musculus with 7 samples.

Results

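Among neutrophils taken from healthy mice, 572 of 12620 carried at least 4 transcripts of 6 interferon-induced genes, and these cells are described here as interferon-high neutrophils. The 6 genes were *Ifit1*, *Ifit3*, *Ifit3b*, *Isg15*, *Rsad2* and *Irf7*. Neutrophils were taken from the 16907 deposited cells of healthy tissues as those with at least 3% of their transcripts from *S100a8* and *S100a9* and fewer than 3 transcripts of *Cd79a*, *Cd79b*, *Cd3e* and *Nkg7* together. They were compared with the 11024 neutrophils of the same libraries that had 0 or 1 transcript of the 6 genes, called low here, and 1024 cells with 2 or 3 transcripts entered neither state.

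The study profiled single neutrophils of male C57BL/6J mice that had been sorted as live CD11b+ Ly6G+ cells negative for propidium iodide. Peripheral blood, bone marrow and spleen each gave 1 library in each of 2 runs, and by the study's methods 3 mice were pooled for each library and all 3 tissues in a run were taken from these mice. Those methods also give the age as 6 weeks in run 1 and 8 weeks in run 2, so age and run cannot be told apart. Transcripts were counted by unique molecular identifier (UMI), so a count is a count of captured molecules. None of these mice received a treatment by the labels.

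Type I interferon binds a receptor on the cell surface and signals through JAK kinases to transcription factors that bind a DNA element called the interferon-stimulated response element. The genes so induced encode proteins that bind viral RNA, degrade nucleic acids, block translation or load antigen, together with brakes on the pathway such as USP18. Neutrophils respond to interferon with many of these genes, and they lose the transcripts of granule proteins as they mature in the marrow.

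Sequence upstream of the leading genes was inspected for the letters of that element. Its core was searched as GAAANNGAAA on both strands in RefSeq promoters of the GRCm38.p6 build, which span 250 bases before to 50 after the start of a transcript. The core was present for 40 of the 139 genes higher in interferon-high cells that had a promoter in the table (28.8%), for 145 of 2989 genes tested (4.85%) and for 1079 of 27025 genes in the whole table (3.99%). A second motif, the gamma-activated sequence TTCNNNGAA, was present for 26 of the 139 genes (18.7%) and for 8.36% of the genes tested. Of the 25 leading higher genes, 17 had a promoter in the table and 4 of these held the core, whereas 5 of the 6 genes that define the state held it. These are matches of letters and were not tested for binding. The stretches that hold the core are printed below for the 4 leading genes, because each also had one of the smallest p-values, and for *Cybb*, the 1 lower gene with a match. They run 5′ to 3′ on the strand of the gene, end at the base before the start except for *Ifitm3*, whose 30 bases begin at the start, and have the match in capitals. The *Oas3* stretch is chr5:120777660-120777759 on the minus strand, the *Ifitm3* stretch chr7:141010715-141010744 on the minus strand, the *Gbp2* stretch chr3:142620579-142620662 on the plus strand, the *Ifit1bl2* stretch chr19:34640744-34640838 on the minus strand and the *Cybb* stretch chrX:9469325-9469517 on the minus strand.
Oas3: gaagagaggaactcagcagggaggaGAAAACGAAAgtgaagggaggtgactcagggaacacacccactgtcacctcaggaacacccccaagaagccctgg
Ifitm3: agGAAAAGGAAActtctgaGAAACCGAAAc
Gbp2: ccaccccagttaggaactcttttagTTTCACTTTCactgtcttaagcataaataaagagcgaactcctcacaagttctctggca
Ifit1bl2: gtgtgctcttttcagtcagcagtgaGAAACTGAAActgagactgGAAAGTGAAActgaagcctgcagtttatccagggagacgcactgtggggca
Cybb: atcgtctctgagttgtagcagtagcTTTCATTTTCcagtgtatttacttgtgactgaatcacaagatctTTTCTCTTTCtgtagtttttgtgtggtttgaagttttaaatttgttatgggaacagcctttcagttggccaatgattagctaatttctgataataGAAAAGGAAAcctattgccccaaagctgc

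*Oas3* makes an oligoadenylate that activates RNase L, *Ifitm3* restricts the entry of enveloped viruses, *Gbp2* is a guanylate-binding GTPase, *Ifit1bl2* is a relative of *Ifit1*, and *Cybb* encodes a subunit of the oxidase that makes superoxide.

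The libraries held 1968514 to 10106307 UMIs, and the rule kept 44.9% to 93.9% of their deposited cells. Interferon-high cells numbered 98 in run 1 and 177 in run 2 for blood, 35 and 77 for bone marrow, and 92 and 93 for spleen, and values are given in this order of runs throughout. All 15 markers of the neutrophil list, which includes *S100a8* and *S100a9* of the rule, had UMIs in the interferon-high cells of every library. The list summed to 181007 to 465783 CPM (counts per 1000000 UMIs) in interferon-high and 216721 to 514999 CPM in low cells, lower in every library. *Csf3r*, the receptor for G-CSF, had 369 to 1784 CPM in interferon-high and 141 to 1634 CPM in low cells. *Csf3r*, *Cxcr2* and *Il1b* were detected in a larger share of interferon-high than of low cells. The list's members outside the rule were otherwise detected in a smaller share, such as *Camp* in 38.3% against 49.1%. *Ly6g*, the gene of the sorting antigen, had 56.6 to 1179 CPM in interferon-high and 157 to 1247 CPM in low cells. The markers of plasmacytoid dendritic cells were at 0 in the interferon-high cells of 4 libraries, where low cells had 3.17 to 9.42 CPM. In blood of run 1 and spleen of run 2 they were at 41.0 and 42.0 CPM, above the 9.75 and 20.7 CPM of low cells. Of this list, interferon-high cells held 3 UMIs of *Tcf4* and 5 of *Irf8*. The monocyte or macrophage list summed to 306 to 1410 CPM in interferon-high and 269 to 1326 CPM in low cells. It was higher in interferon-high cells of every library except marrow of run 2, at 975 against 1017 CPM. *Ly6c2*, which young neutrophils also express, gave 192 to 1344 CPM of this in interferon-high cells, and its fold between the states was 0.02 ± 0.11 on the log2 scale. At most 36 cell barcodes were shared by any pair of libraries, and 1 was shared among interferon-high cells.

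The 6 genes chose the cells, so their levels are given without a test. *Isg15*, a ubiquitin-like protein attached to other proteins, gave 36.1% to 45.2% of the UMIs of the 6 in interferon-high cells and was detected in 519 of the 572 (90.7%). *Rsad2*, which makes an antiviral nucleotide, was detected in 51.6%, *Irf7*, a transcription factor that drives interferon genes, in 48.8%, and *Ifit3*, a binding partner of IFIT1 on viral RNA, in 44.6%. Detection usually involved several of the genes: 43 cells (7.52%) rested on 1 gene alone, 140 on 2, 184 on 3 and 35 on all 6. *Ifit3* and *Ifit3b* are near-identical copies between which reads can be split. The sum of the 6 does not depend on that split, but the number of genes detected in a cell can. The threshold cut a continuous scale, with 357 cells at exactly 3 UMIs just outside it and 163 at exactly 4 just inside. The highest number in 1 cell was 63, in spleen of run 1.

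The raw share of interferon-high neutrophils was 7.51% and 4.85% for blood, 2.93% and 2.27% for marrow, and 8.12% and 4.76% for spleen. Marrow cells were deeper, with a median of 2157 and 2062 UMIs in interferon-high cells against 865 and 918 in blood and 1095 and 829 in spleen. With every cell cut at random to 500 UMIs, leaving out 26 cells of blood of run 1 and none elsewhere, the shares were 4.30% (exact 95% interval 3.26 to 5.56) and 2.28% (1.82 to 2.81) in blood. In bone marrow they were 0.335% (0.0914 to 0.856) and 0.413% (0.226 to 0.693), from 4 and 14 cells, and in spleen 3.00% (2.09 to 4.17) and 1.99% (1.42 to 2.72). These intervals cover counting error only. Both marrow libraries lay below the other 4, and the ranges of blood and spleen overlapped. Within each run, which used 1 set of mice, blood was highest, then spleen, then marrow, though blood and spleen intervals overlapped each time. The tissue means were compared by an exact permutation test over the 6 libraries, which gave p = 0.133, in a design where the smallest possible value is 0.0667, so the order of the tissues is not established by this test. The exact permutation of tissues within runs gave p = 0.167, the smallest value that design allows. The summed level of the 6 genes over all neutrophils was 975 and 819 CPM in blood, 182 and 164 CPM in marrow, and 511 and 733 CPM in spleen. These levels come from the genes of the rule and were not tested.

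**Figure D1:**
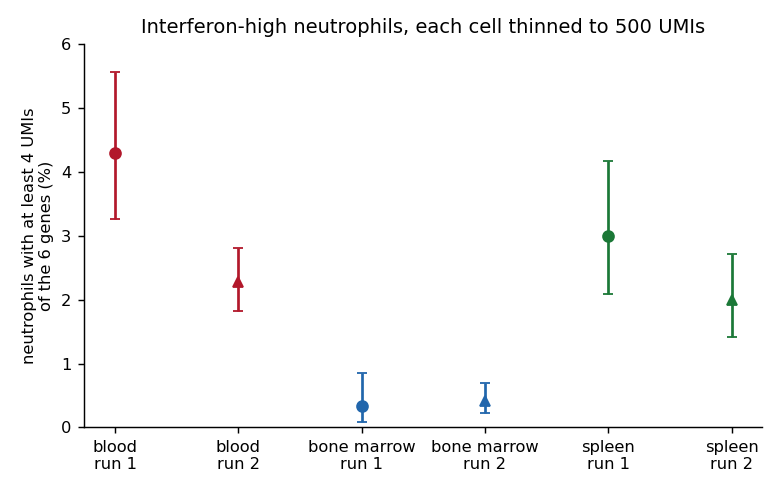
Share of neutrophils (y axis, percent) with at least 4 UMIs of the 6 genes after thinning each cell to 500 UMIs, per library (x axis), with exact 95% binomial intervals as bars. Circles are run 1 and triangles run 2, and both bone marrow libraries, at 0.335% and 0.413%, lie below the 4 others.

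Free RNA was gauged in erythroid cells, which should lack a neutrophil interferon program. In blood of run 2, at 500 UMIs, 1 of 723 such cells (0.138%) reached 4 UMIs of the 6 genes against 2.28% of neutrophils. Without thinning it was 2.63% at a median depth of 2753 UMIs, against 4.85% of neutrophils. The other libraries held 0 to 34 erythroid cells, none of them in spleen, and without thinning the share of these at the threshold was above that of neutrophils in all 3 libraries that had any. It was 3 of 34 (8.82%, median 3361 UMIs) against 7.51% in blood of run 1, 4 of 12 (33.3%, median 10861 UMIs) against 2.93% in marrow of run 1, and 1 of 8 (12.5%) against 2.27% in marrow of run 2. At 500 UMIs 0 of 34, 1 of 12 and 0 of 8 reached it, and the counts of 0 allow shares of up to 8.82% and 37.5%. Of the 6 libraries, only blood of run 2 thus has a share shown to exceed that of erythroid cells, since the counts in blood of run 1 and marrow were too few and spleen had no such cells.

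Cells were also put into 3 classes by the share of UMIs from granule genes, with limits at 2.6% and 11% for all libraries, again at 500 UMIs. In the class with the fewest granule transcripts, interferon-high cells made up 5.44% and 2.81% in blood, 0 of 8 cells (which allows up to 37.5%) and 3.13% in marrow, and 6.90% and 2.33% in spleen. In the class with the most they made up 0 of 145 cells in blood of run 1, 0 of 43 in blood of run 2, 0.112% and 0.0990% in marrow, 0.561% in spleen of run 1 and 0 of 73 in spleen of run 2. The counts of 0 allow shares of up to 2.07%, 6.98% and 4.11%, as 3 cells of the total. Marrow held 8 and 32 cells in the lowest class, so its value there rests on 0 and 1 cell.

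Outside the 6 genes, interferon-high cells carried a broad set of interferon-induced transcripts in all 3 tissues. Of 3851 genes tested on UMIs summed per library and state, 174 were higher (4.52%) and 74 lower (1.92%) at an adjusted p under 0.05 in edgeR's quasi-likelihood test with a term for each library. Of these, 148 were higher and 47 lower in 6 of 6 libraries, a direction that follows in part from calls made on the same libraries. Of the 174 higher genes, 60 were on the interferon lists used below, antigen presentation aside, and the rest were on none of those. The median log2 fold over all genes tested was -0.04. The test addresses other transcripts of cells that were themselves chosen by the 6, and the 12 genes used to choose cells were left out of it. The filter on low counts can be passed through the interferon-high sums alone: 121 of the 174 higher genes also reached its level in all 6 low sums. Likewise, 45 of the 74 lower genes reached it in all 6 interferon-high sums. Without the filter the balance turned, with 132 higher and 215 lower of 13398 genes. The scaling factors also changed there, and the log2 folds of the 3851 genes shifted by -0.18 at the median, so counts given without the filter include that shift. DESeq2 called 153 and 28, and the counts were 116 and 40 without marrow of run 2 and 135 and 49 without marrow of run 1.

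*Usp18*, a protease that removes ISG15 and blocks the interferon receptor (chr6:121245906-121270917), had the smallest p-value. Its level in interferon-high cells was 256 and 266 CPM in blood, 154 and 149 in marrow, and 209 and 210 in spleen. In low cells it was 15.1 and 8.57, 7.51 and 6.52, and 11.3 and 20.7 CPM in the same order. The states did not overlap in any library, and the fold was 4.19 ± 0.22 on the log2 scale (SE, edgeR adjusted p = 7.16e-14). Only 2 of its 6 low sums reached the level of the filter on low counts, so it needed the interferon-high sums to pass. Of the 25 leading higher genes 16 reached that level in all 6 low sums. *Rtp4*, a protein that binds viral RNA (chr16:23520291-23614222), stood at 1497 and 1329.9 CPM in blood, 694 and 733 in marrow, and 1373 and 1419 in spleen. Its low cells had 413 and 345, 113 and 78.1, and 187 and 319 CPM. Every interferon-high sum was above every low sum, and the log2 fold was 2.35 ± 0.14. *Slfn4*, of the Schlafen family of myeloid cells, ranged over 496 to 866 CPM in interferon-high and 95.4 to 223 CPM in low cells, again without overlap, with a log2 fold of 2.03 ± 0.12. *Cmpk2*, a mitochondrial nucleotide kinase that lies beside *Rsad2*, ranged over 192 to 308 CPM against 23.8 to 47.0 CPM.

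Over all genes tested, 53 (1.38%) had a lowest interferon-high CPM above the highest low CPM, and 52 of these were among the 174. Genes of this kind included *Zbp1*, a sensor of left-handed nucleic acids, at 143 to 215 against 22.3 to 34.6 CPM, and *Ifitm3* at 3602 to 4736 against 1555 to 2022 CPM. *Ifit2*, a relative of the defining genes, had 27.5 to 103 CPM against 0 to 1.88 CPM, on 49 and 23 UMIs, and none of its 6 low sums reached the level of the filter, so it needed the interferon-high sums to pass. *Ifi27l2a*, a small interferon-induced protein, and *Ly6e*, a surface protein, overlapped between states across tissues but were higher in 6 of 6 libraries, with log2 folds of 1.58 ± 0.14 and 1.74 ± 0.14. Of the 25 leading genes, all were called with DESeq2, with another scaling and without each library in turn, and all 24 that could be tested against low cells matched on depth and maturity were called there too.

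**Figure D2:**
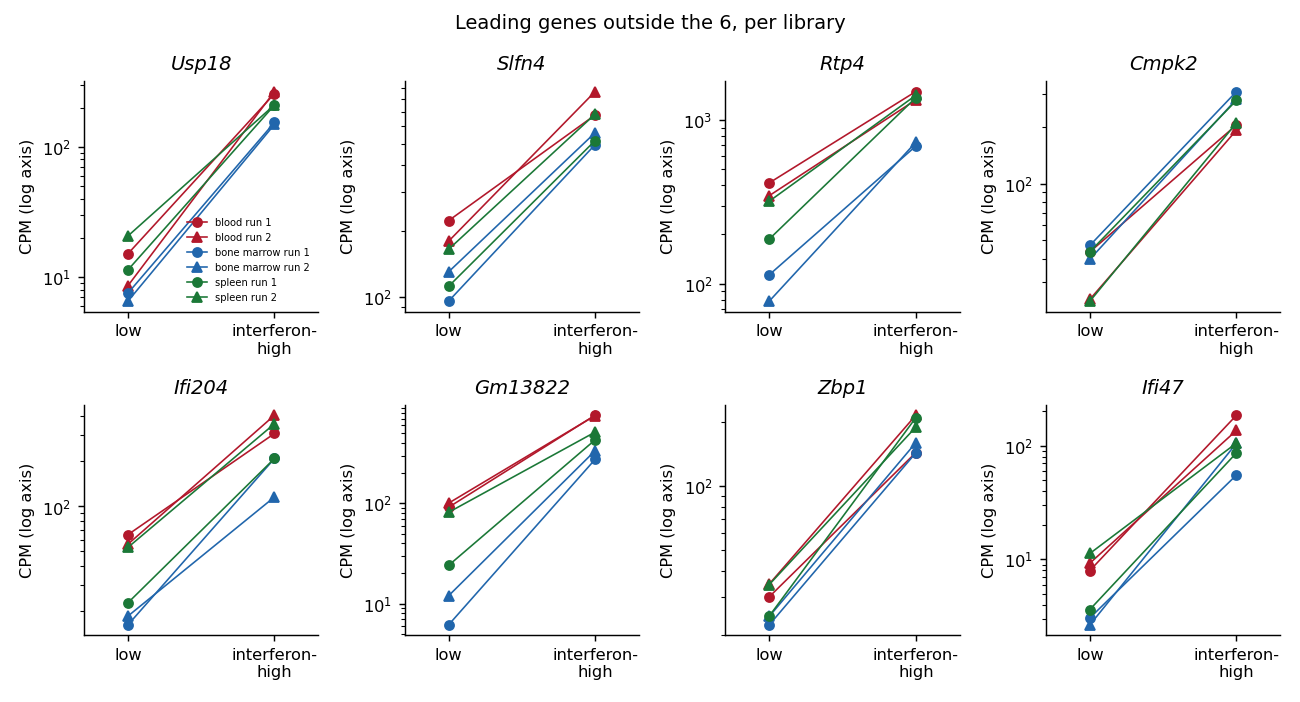
Level in CPM (y axis, log scale) of the 8 genes outside the 6 with the smallest p-values, in low and interferon-high neutrophils of each library. Lines join the states of 1 library, circles are run 1 and triangles run 2, and the interferon-high point is the upper one on every line.

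The antiviral effectors were the group with the most calls. Without the filter on low counts, 25 of the 30 genes with counts, of 32 on the list, were higher and none lower. With it 26 were tested and 24 were higher, but only 13 of the 26 reached its level in all low sums and the others needed the interferon-high sums to pass. *Oas1a*, *Oas2*, *Oas3*, *Oasl1* and *Oasl2*, the oligoadenylate synthetases and their relatives, were all higher, with log2 folds from 1.93 to 3.65. *Eif2ak2* (PKR, which stops translation on double-stranded RNA) had a log2 fold of 2.66 ± 0.37, *Bst2* (tetherin, which holds budding virions) 2.74 ± 0.30, and *Isg20* (an exonuclease) 2.61 ± 0.19. *Xaf1*, a partner of the apoptosis inhibitor XIAP, and *Herc6*, the ligase that attaches ISG15 in mice, had log2 folds of 3.30 ± 0.25 and 4.17 ± 0.30, and reached that level in 1 and 0 of the 6 low sums. *Oasl1* reached it in 3. *Mov10* (0.93 ± 0.31, adjusted p = 0.072) and *Nt5c3* (0.37 ± 0.30) did not pass, and *Mx1*, *Mx2*, *Ifi44*, *Ifi44l*, *Oas1g* and *Pnpt1* were below the filter. The *Oas*, *Slfn* and *Trim30* genes have close paralogs, so the split of reads among them is uncertain.

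Of 16 sensors and transducers, 7 were higher without the filter. With it 8 of 10 were higher, and only 5 of the 10 reached its level in all low sums. *Ifih1* (MDA5), *Ddx58* (RIG-I) and *Dhx58* (LGP2), the cytoplasmic receptors of viral RNA, had log2 folds of 2.46 ± 0.37, 1.92 ± 0.23 and 1.47 ± 0.37. The pathway that carries the interferon signal behaved unevenly. Its list of 14 had 4 genes called higher without the filter, among them *Stat2*, which was not tested with it. With the filter 4 of 11 tested genes were higher, so these are not the same 4. Of the 11, 9 reached its level in all low sums. Among the genes called with the filter, the transcription factor genes *Irf9*, *Irf2* and *Irf1* had log2 folds of 1.11 ± 0.20, 0.85 ± 0.17 and 0.67 ± 0.18. The receptor subunit genes *Ifnar1* (0.20 ± 0.29), *Ifnar2* (-0.03 ± 0.27), *Ifngr1* (0.14 ± 0.18) and *Ifngr2* (0.21 ± 0.16) and the kinase genes *Jak1* (0.29 ± 0.16) and *Jak2* (0.39 ± 0.36) did not pass the test.

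Of the feedback and ubiquitin-like machinery, 3 of 10 genes were higher without the filter: *Usp18*, *Herc6* and *Socs1*, the last not tested with it. With it *Usp18*, *Herc6* and the RNA-editing enzyme gene *Adar* (edgeR adjusted p = 0.020) were higher of 9 tested, and 3 of the 9 reached its level in all low sums. *Adar* was not called without the filter. *Uba7*, which activates ISG15, reached 1.04 ± 0.35 (adjusted p = 0.071), and *Socs3*, a brake on cytokine signals, 0.24 ± 0.18. Without the filter on low counts, 5 of 6 genes of ADP-ribosylation and 7 of 15 GTPases of the GBP and IRG families were higher. Only 4 and 6 of them passed the filter, and none of these reached its level in all low sums, so they passed through the group where they are high. They were *Parp9*, *Parp10*, *Parp14* and *Dtx3l*, and GTPases such as *Gbp2* at 2.99 ± 0.26, *Irgm1* at 2.81 ± 0.27 and *Ifi47* at 4.21 ± 0.30. These GTPases act on the membranes of pathogen vacuoles. *Ifi204*, a DNA sensor and the 1 tested gene of 7 on the PYHIN list, stood at 116 to 407 CPM against 16.1 to 64.7 CPM, with a log2 fold of 2.78 ± 0.17.

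The IFITM and Ly6 list divided. *Ifitm3* (1.19 ± 0.10), *Ly6e* and *Ifitm1* (0.58 ± 0.14) were higher, whereas *Ifitm2* (0.24 ± 0.10, adjusted p = 0.22), *Ifitm6* (-0.31 ± 0.14) and *Ly6g* (-0.52 ± 0.19, adjusted p = 0.11) did not pass. Without the filter on low counts 3 of the 8 genes were higher and 2 (*Ifitm6* and *Ly6g*) lower. *Ly6g* was lower in 5 of 6 libraries, but was higher in the separate healthy blood cells described at the end. Of the remaining interferon-regulated genes, 11 of the 30 with counts were higher without the filter. With it 8 of 11 were higher, 8 of the 11 reached its level in all low sums, and among the higher genes was *Trafd1*, a regulator of Toll-like receptor signals, at 2.40 ± 0.21.

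Antigen presentation by class I molecules moved in the same direction by smaller folds, with 11 of 13 tested genes higher and a median of 0.69. All 13 reached the filter level in all low sums, and without the filter 6 of 17 were called. *Psmb8*, a catalytic subunit of the immunoproteasome, had 286 to 656 CPM in interferon-high and 115 to 256 CPM in low cells, without overlap, and a log2 fold of 1.26 ± 0.12. *Tap1*, a subunit of the peptide transporter, had 1.51 ± 0.21, *H2-T22* 1.43 ± 0.24, *B2m* 0.42 ± 0.10 and *H2-K1* 0.55 ± 0.12. *Tap2* (0.33 ± 0.21) and *Psmb10* (0.69 ± 0.34) did not pass. Sequences of class I genes are alike, so reads among them may be shared. In contrast, none of 18 genes of NF-kB and early inflammation was called without the filter on low counts, and 1 of the 9 tested with it was higher, *Il1rn*, the antagonist of the interleukin-1 receptor, at 0.51 ± 0.13.

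**Figure D3:**
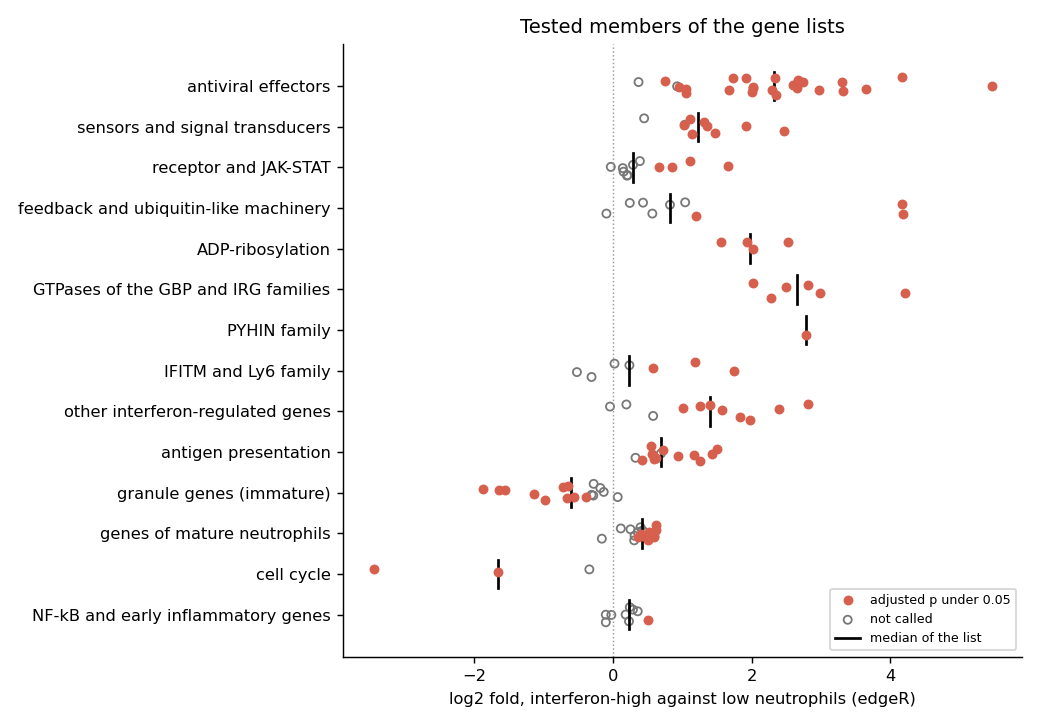
Log2 folds of interferon-high against low neutrophils (x axis, edgeR) for the tested members of each gene list (y axis), filled where the adjusted p was under 0.05 and open otherwise, with the median as a bar. Members below the filter on low counts are not drawn, and 13 of the 26 antiviral effectors drawn, and all drawn genes of ADP-ribosylation and GTPases, needed the interferon-high sums to pass. The 10 called granule genes lie below 0.

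Levels of other antiviral genes followed the number of UMIs of the 6. The summed level of the antiviral list, which contains none of the 6, was 1061 to 2667 CPM over the libraries in cells with 0 UMIs, 1283 to 4218 CPM at 1 UMI and 1784 to 6113 CPM at 2 or 3. It was 3474 to 7250 CPM at 4 to 7 UMIs and 5846 to 12706 CPM at 8 or more. The order of the 5 classes was the same in all 6 libraries. *Usp18* averaged 7.56 ± 3.85 CPM (SD, n = 6 libraries) at 0 UMIs, 26.9 ± 11.3 at 1, 58.0 ± 34.9 at 2 or 3, 116 ± 42.3 at 4 to 7 and 392 ± 140 at 8 or more. On either side of the threshold of the rule the ranges overlapped, with 1680.2 to 7229 CPM of the antiviral list at exactly 3 UMIs and 2147 to 7332 CPM at exactly 4. Within a library the level at exactly 4 was above that at exactly 3, except in blood of run 1, at 6055 against 6221 CPM.

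**Figure D4:**
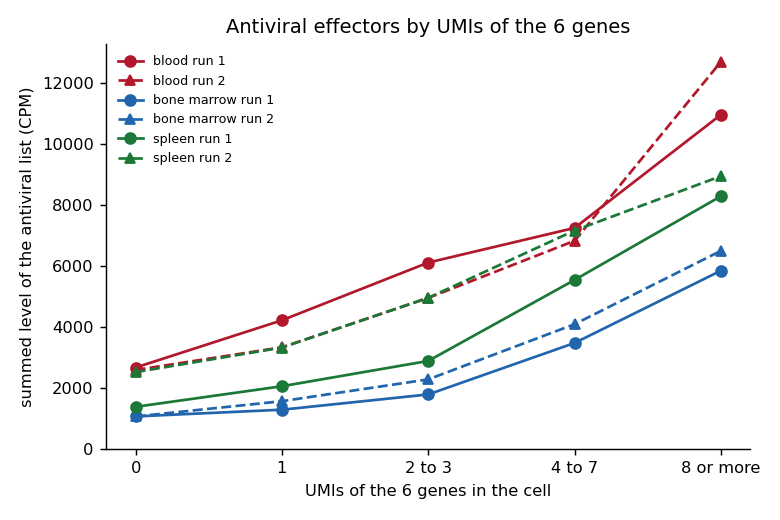
Summed level of the antiviral list (y axis, CPM) in neutrophils grouped by their UMIs of the 6 genes (x axis), 1 line per library, with circles and solid lines for run 1 and triangles and dashed lines for run 2. Every class lies above the one before it on each line, and the class with 8 or more UMIs reaches 5846 to 12706 CPM.

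The transcripts that were lower belonged in part to immature and dividing neutrophils. Of 20 granule genes 16 were tested, 10 were lower and none higher, and the median was -0.60. Without the filter 15 of 20 were lower. *Chil3*, a chitinase-like protein of young neutrophils, had 61.5 and 22.6 CPM in interferon-high cells of blood, 1168 and 1284 in marrow, and 1576 and 462 in spleen. In low cells it had 689 and 121, 3689 and 3398, and 3309.8 and 948 CPM, so each library showed the same direction while the tissues overlapped, and the log2 fold was -1.64 ± 0.16 (edgeR adjusted p = 1.33e-08). *Cebpe*, a transcription factor of granule genes, had -1.19 ± 0.17, but -0.37 (adjusted p = 0.33) against low cells matched on depth and maturity, and it was not called at 500 UMIs (adjusted p = 0.080). *Chil3* was at -0.09 (edgeR adjusted p = 0.79) in the same matching, which used the share of the granule list that holds *Chil3* itself. *Ube2c*, a mitotic ubiquitin-conjugating enzyme, had 0 CPM in 5 of 6 interferon-high sums and 33.1 CPM in marrow of run 2, on 6 UMIs, against 12.7 to 163 CPM in low cells. It had no value without that library. *Tuba1b*, a tubulin, had 0 to 21.0 CPM on 7 UMIs against 21.9 to 175 CPM. Each reached the filter level in 1 of 6 interferon-high sums and needed the low sums to pass. Of 20 cell cycle genes 3 were tested and 2 lower, and 11 of 20 were lower without the filter. Of 20 genes of mature neutrophils 12 were higher, with small folds such as 0.51 ± 0.14 for *Csf3r* and 0.42 ± 0.12 for *Cxcr2* (a chemokine receptor), but only 2 of 20 were higher without the filter.

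The states also differed in maturity. Granule genes took 2.35% to 13.6% of UMIs in interferon-high and 3.26% to 18% in low cells, lower in 6 of 6 libraries. Against low cells matched on depth and on the share of both maturity lists, 88 genes were higher and 8 lower of 1864 tested. There 17 of 17 tested genes of the antiviral list were higher. The granule list had 1 of 16 lower and the mature list 2 of 19 higher. The matching evened out the shares of these same lists, so few calls within them were set by it and are not a result. *Chil3*, at a log2 fold of -0.09 (edgeR adjusted p = 0.79) in that comparison, is on the granule list. *Ndufv3*, of mitochondrial complex I, and *Lamtor4*, of the lysosomal Ragulator complex, are on neither list. Both were still called, at -0.74 and -0.50. Without cells carrying 2 or more monocyte UMIs, 103 genes were higher and 44 lower of 2456, and without cells carrying a UMI of a shorter monocyte list, chosen after seeing the data, 154 and 80 of 3578.

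Most folds did not pass a test of a difference between tissues. The 174 higher genes had a median log2 fold of 0.95 in blood, 1.15 in bone marrow and 1.00 in spleen, and 171 of them were positive in all 3. They were chosen for a higher level in the joint fit of these same libraries, so positive folds largely follow from the choice. Taken in 1 tissue alone, 63 of the 174 were called in blood, 80 in bone marrow and 72 in spleen. A test of the tissue by state interaction called 13 of 3851 genes (0.338%), with 156 at an unadjusted p under 0.05, and 3 of the 13 were among the 174. The count was 3 with DESeq2 and 24 with a run by state term. It was 8 without blood of run 2, 7 and 6 without marrow of run 1 and run 2, and 46 and 62 without spleen of run 1 and run 2, so how many genes differ between tissues is not settled here. *Usp18* had log2 folds of 4.56 in blood, 4.38 in marrow and 3.65 in spleen, and *Cmpk2* 2.62, 2.71 and 2.68. Neither passed the interaction test, which does not show that the folds are equal. *Gm13822*, an antisense transcript that overlaps *Oasl1* (chr5:114917318-114923277), was the 1 leading gene that passed, with 4.97 ± 0.31 in marrow against 2.93 ± 0.23 in blood and 3.25 ± 0.26 in spleen. Its low cells had 6.12 and 12.0 CPM in marrow against 91.3 and 100.4 in blood. Only 4 of its 6 low sums reached the level of the filter on low counts, with both marrow sums below it. It thus needed the interferon-high sums there. The interaction was not called against low cells matched on depth and maturity (edgeR adjusted p = 0.995). The genes overlap only at their starts, and the strand used in counting is not given in the sources used here.

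The genes with the smallest interaction p were those of secondary granules. *Camp* (the cathelicidin precursor) stood at 953 and 34.0 CPM in interferon-high blood cells against 15993 and 1372 in low ones, a log2 fold of -4.46 ± 0.24. It stood at 25918 and 16080 against 47403 and 29772 CPM in marrow, and at 20651 and 4099 against 44905 and 7111 CPM in spleen, with log2 folds of -0.95 ± 0.18 and -1.10 ± 0.18. Blood therefore showed the deepest fall of the 3 tissues, and the same held for *Ngp* and *Ltf* (lactoferrin), at -3.99 ± 0.24 and -5.22 ± 0.39 in blood. Against low cells matched on depth and maturity the interaction was still called for *Camp* and *Ltf* but not for *Ngp* (edgeR adjusted p = 0.347). These genes are on the granule list whose share the matching used. The stefin genes *Stfa1* and *Stfa2l1* and the stefin-like *BC100530*, cysteine protease inhibitors of a family of close copies, differed from each other in pattern. *Stfa1* had 0 and 34.0 CPM in interferon-high against 195 and 201 CPM in low cells of blood, 606 and 237 against 130 and 113 CPM in marrow, and 394 and 168 against 77.5 and 167 CPM in spleen. *BC100530* had 144 and 11.3 against 64.7 and 63.1 CPM in blood, 375 and 364 against 27.3 and 100.1 CPM in marrow, and 30.8 and 0 against 76.2 and 74.5 CPM in spleen. The runs of blood thus went opposite ways for *BC100530*, and both genes had 1 interferon-high sum at 0. *Stfa2l1* had log2 folds of -0.03 ± 0.21 in blood, 1.49 ± 0.22 in marrow and 0.17 ± 0.22 in spleen. *Cd74*, the class II invariant chain, had 2585 CPM in interferon-high cells of spleen of run 2 against 0 to 113 CPM in the other 5 libraries. The low cells of that library had 745 CPM. B-cell markers there were at 589 CPM in interferon-high and 508 CPM in low cells with all 8 seen, and their part in the result was not tested. Haemoglobin genes were also among the 13, and the erythroid list was at 2739 CPM in interferon-high and 90.2 CPM in low cells of spleen of run 1, with a UMI in 8.70% and 9.83% of cells. In blood of run 2 it was at 50232 and 30219 CPM, and in blood of run 1 at 666 and 708 CPM, and the part of these transcripts in the result was not tested.

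**Figure D5:**
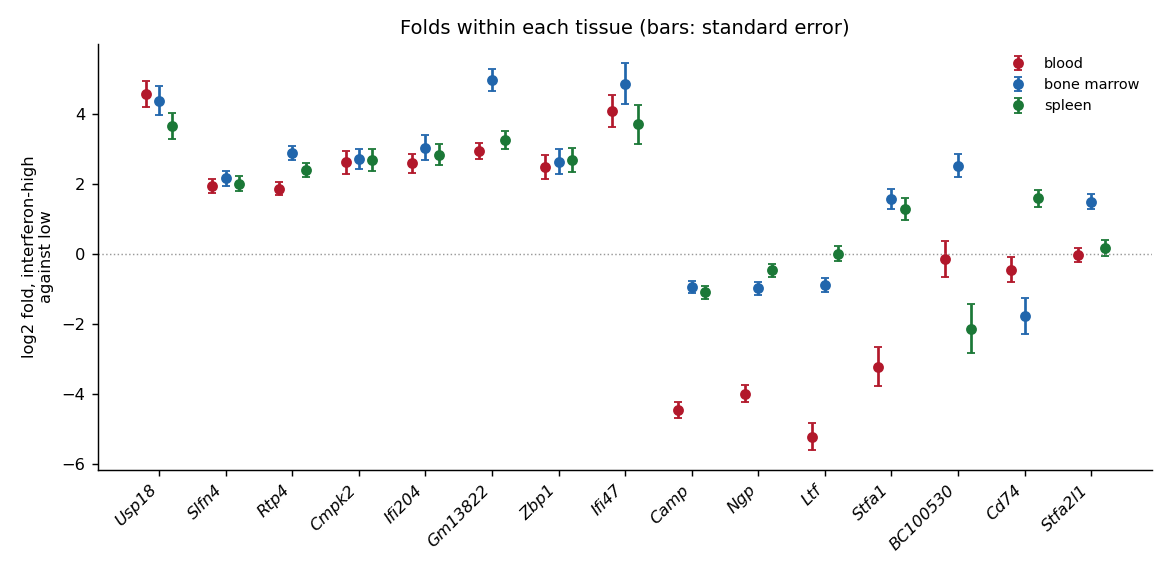
Log2 folds of interferon-high against low neutrophils (y axis) within blood, bone marrow and spleen, with standard errors as bars, for the 8 leading genes and the other genes with the smallest interaction p-values. The leading genes lie between 1.86 and 4.97 in all tissues, while *Camp*, *Ngp* and *Ltf* fall to -5.22 in blood.

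Healthy blood of a separate library, the hashtag-marked healthy condition of the inflammation experiment, gave values that had no part in these tests. By the same rule 408 of 509 cells were neutrophils and 31 of these (7.60%, exact 95% interval 5.22 to 10.6) were interferon-high, at a median of 2965 UMIs, with 337 low cells at 2653. Of the 174 higher genes, 170 had at least 3 UMIs and 130 (76.5%) had a higher CPM in interferon-high cells, against 43.2% of 3791 genes tested. Of the 74 lower genes 68 had enough UMIs, and 22 (32.4%) had a higher CPM there. *Rtp4* had 653 CPM (exact Poisson interval 497 to 843) in interferon-high and 74.1 (56.7 to 95.2) in low cells, *Slfn4* 975 (782 to 1201) and 285 (250.1 to 324), and *Usp18* 88.6 (38.3 to 175) and 6.07 (1.97 to 14.2). Of the 25 leading higher genes 24 had a higher CPM in interferon-high cells, the exception being *Ifit2* with 0 UMIs against 2. Of the leading lower genes, 6 of 11 with a UMI also had a higher CPM there, among them *Chil3* on 3 and 6 UMIs. *Ly6g* had 199 CPM (118 to 315) in interferon-high and 38.9 (26.6 to 54.9) in low cells, the opposite of the direction in 5 of the 6 libraries. This is 1 library, so there is no replicate check and the intervals cover counting error only.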

How the data were processed

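The authors aligned reads to mm10 with Cell Ranger, per the labels, and deposited UMI counts per gene symbol and cell, without normalization. The deposited condition column of the inflammation cells was used only to find its healthy blood cells. Members and gene lists were chosen with earlier results of these data known. Cells were assigned to states by UMIs of the 6 genes, and counts were summed per library and state (12 sums, with the 12 genes of the rule left out). The sums were tested with edgeR 4.0.16 (R 4.3.3, limma 3.58.1; quasi-likelihood, TMM, filterByExpr, a term per library, FDR 0.05). P-values thus measure how the fold between states varies from library to library, since the term per library takes up differences in level. Each library is a pool of 3 mice. As each run used 1 set of mice, the 6 libraries are not 6 independent pools, and the p-values do not allow for this. CPM uses all UMIs of a sum. Standard errors are the log2 fold divided by the square root of F. Named genes were the 25 higher and 12 lower with the smallest p and the same direction in 6 of 6 libraries, up to 8 of the interaction test, and list members. Alternatives were DESeq2 1.42.0, other scaling, filters, thinning to 500 or 800 UMIs, matching up to 3 low cells per high cell, other thresholds, cell filters, blocks and leaving out libraries. On simulated data of 3851 genes for the interferon-high against low comparison, 76% of 2-fold and 100% of 4-fold increases, and 58% of 2-fold and 94% of 4-fold decreases, were called. No doublet caller was run and free RNA was not corrected. Gene positions are from GENCODE on GRCm38. The numbers pair the tissues because, by the methods, each run used 1 set of mice. Deviations from tissue means correlated at 0.562 to 0.590 across 3851 genes. This cannot tell shared mice from other differences between runs, such as age. Some results are not reported here.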

Additional observations from a re-analysis of the deposited data

Results flagged for a closer look

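A difference between tissues in the fold of interferon-high against low neutrophils was found for 8 named genes by the interaction test of edgeR's quasi-likelihood fit. The adjusted p was 4.98e-12 for *Camp*, 4.08e-11 for *Ngp* and 2.10e-10 for *Ltf*, with the deepest fall in blood. It was 1.13e-06 for *Stfa1*, 2.96e-05 for *BC100530* and 0.00889 for *Stfa2l1*. *Stfa1* and *BC100530* each had 1 interferon-high sum at 0 CPM, and the blood runs went opposite ways for *BC100530*. It was 6.55e-05 for *Cd74*, where spleen of run 2 stood apart from the other libraries, and 0.00188 for *Gm13822*. Both marrow low sums of *Gm13822* were below the level of the filter on low counts. *Camp*, *Ltf*, *Stfa1*, *BC100530* and *Stfa2l1* were also called when low cells were matched on depth and maturity, *Ngp* and *Gm13822* were not, and *Cd74* could not be tested, a setting chosen after seeing the data.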

How the results depend on the processing

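The 248 called genes (174 higher, 74 lower) became 101 (75 and 26) with cells thinned to 500 UMIs, where 2253 genes were tested, 134 (105 and 29) against low cells matched on depth, 96 (88 and 8) against those matched on depth and maturity, and 147 (103 and 44) without cells with 2 or more monocyte UMIs. DESeq2 called 153 higher and 28 lower, of which 150 and 28 were shared with edgeR, and no filter gave 132 and 215 of 13398. Without 1 library the calls numbered 156 to 271, the higher ones 116 to 180 and the lower ones 40 to 91, with the lowest value of each without bone marrow of run 2. With no replicate block 149 genes (24 lower) were called with tissue and run as terms and 69 (66 and 3) with state alone, and a run by state term added to the replicate block gave 179 and 77. All of the named higher genes that could be tested kept their call under DESeq2, other scaling, thinning, both matchings, the monocyte filter and each left-out library. Of the 12 named lower genes, 4 of the 8 tested against cells matched on depth and maturity lost it (*Chil3*, *Cebpe*, *Lta4h* and *Cybb*), as did 2 of 7 at 500 UMIs (*Cebpe* and *H2afv*), 1 of 8 matched on depth and 1 of 7 with the monocyte filter (*H2afv*), and 1 of 12 under DESeq2 (*Camp*, adjusted p = 0.18), and *Ube2c* could not be tested without bone marrow of run 2. The 13 interaction genes became 3 with DESeq2 and 24 with the run by state term, and 6 to 62 without 1 library (8 without blood of run 2, 7 and 6 without bone marrow of run 1 and run 2, 46 and 62 without spleen of run 1 and run 2). The cause of these changes was not tested, other than that fewer genes or cells entered some of them. The matching on maturity used the share of the granule list, which holds *Chil3* and *Cybb*. The share at 500 UMIs was 2.91 points higher in blood than in marrow, 4.75 at 800 UMIs, 7.54 and 4.39 at a threshold of 2 and 3 UMIs, and 1.90 to 3.93 points higher without 1 library. Blood exceeded spleen by 0.79 points (0.101 at 800 UMIs, 0.136 with the monocyte filter, 0.287 without spleen of run 2, 1.80 and 1.29 without blood of run 2 and spleen of run 1), but spleen exceeded blood without thinning (-0.257) and without blood of run 1 (-0.222). The replicate block, with tissues permuted within runs, gave an exact permutation p of 0.167, the smallest it can give. Marrow of run 1 had 35 interferon-high cells, the smallest number of any library.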
